A study of Homo sapiens with 44 samples.

Results

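The EGF family ligands AREG, EREG, HBEGF, TGFA, BTC and NRG1 were followed in cultured intestinal fibroblasts after stimulation with 10 single cytokines. They were taken by symbol from a table of 40663 gene symbols, so 6 symbols of 40663 are described here. The choice was not independent of the data, since AREG and NRG1 were selected on their counts by replicate number, which differed between replicates. Of the 6, AREG, EREG, HBEGF and NRG1 passed the filter on low counts and were tested among 9513 genes, whereas TGFA and BTC did not.

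The cells were Ccd-18Co, a fibroblast line from normal human colon, kept to at most passage 20. They were starved of serum for 72 h and then left unstimulated or stimulated for 24 h with IL-1β at 0.1 ng/ml, or with TNF, TGF-β1, OSM, IFNγ, IFNα, IL-22, IL-17A, IL-13 or IL-6 at 10 ng/ml each. Bulk RNA-seq gave 4 replicate libraries in each of the 11 groups, numbered 1 to 4 in the labels, which makes 44 libraries. All groups share the single cell line and the starvation, and a concentration of 0.01 ng/ml is also given for IL-1β in the study. All 10 cytokines were compared with the same 4 unstimulated libraries. Nothing in the labels says that replicates were separate cultures, so p-values measure the spread between these libraries, which may be technical.

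EGF family ligands are made as membrane-anchored precursors and are released by proteases of the ADAM family. The released ligand binds receptor tyrosine kinases of the ERBB family, which then activate the RAS and MAP kinase cascade. AREG (amphiregulin) and TGFA (transforming growth factor α) bind EGFR. EREG (epiregulin), HBEGF (heparin-binding EGF-like growth factor) and BTC (betacellulin) bind EGFR and ERBB4, and NRG1 (neuregulin 1) binds ERBB3 and ERBB4. In the intestine, ligands from mesenchymal cells act on the growth and repair of the epithelium.

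AREG, EREG and BTC lie in a cluster of ligand genes on chromosome 4 (GRCh38, GENCODE 44). EREG spans positions 74365145 to 74388749 on the plus strand, and AREG spans 74445136 to 74455005 on the same strand. The end of EREG and the start of AREG are 56.4 kb apart, and BTC follows on the minus strand at 74744759 to 74794523, 289.8 kb beyond AREG. HBEGF lies on chromosome 5 (140332843 to 140346603), and TGFA on chromosome 2 (70447284 to 70554193), both on the minus strand. The 250 bases before the RefSeq start site (GRCh38.p14) of the neighbours AREG, EREG and BTC are shown because AREG and EREG both rose with IL-1β and TNF, while BTC was counted in IFNα libraries. The windows are chr4:74444886-74445135 (plus strand) for AREG, chr4:74364895-74365144 (plus strand) for EREG and chr4:74794524-74794773 (minus strand) for BTC. Capitals mark matches to the searched motifs.
AREG: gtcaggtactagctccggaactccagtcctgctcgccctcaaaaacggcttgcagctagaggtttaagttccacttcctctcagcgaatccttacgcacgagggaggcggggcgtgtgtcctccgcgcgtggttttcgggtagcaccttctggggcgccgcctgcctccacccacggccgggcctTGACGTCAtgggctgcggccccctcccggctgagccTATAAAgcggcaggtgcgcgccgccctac
EREG: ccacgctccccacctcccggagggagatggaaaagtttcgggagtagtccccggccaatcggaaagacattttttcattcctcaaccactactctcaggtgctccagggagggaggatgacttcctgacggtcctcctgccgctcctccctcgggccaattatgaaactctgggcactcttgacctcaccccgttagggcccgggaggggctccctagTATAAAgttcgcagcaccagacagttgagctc
BTC: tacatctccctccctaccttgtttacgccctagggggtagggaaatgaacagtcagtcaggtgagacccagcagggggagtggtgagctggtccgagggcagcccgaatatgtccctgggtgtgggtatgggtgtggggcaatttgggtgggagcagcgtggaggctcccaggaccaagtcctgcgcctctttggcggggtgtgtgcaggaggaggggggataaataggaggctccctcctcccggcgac
AREG had the cyclic AMP response element letters TGACGTCA 65 bases before its start and the TATA box letters TATAAA 29 bases before it. EREG had TATAAA 32 bases before its start. Among 34943 RefSeq windows of the same length, searched on both strands, TGACGTCA was present in 1.63% and TATAAA in 10.8%. The other motifs searched were TGANTCA (AP-1, in 6.59% of windows), the interferon-stimulated response element (GAAA, any 2 bases, GAAA; 3.02%) and the κB site (GGGA, any base, TTTCC; 0.527%), with no match in these 3 windows. These matches are descriptions of letters in the window.

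Libraries held between 742173 and 2213424 counts. Levels are given in CPM, which adjusts each count for the depth of its library after TMM normalization. CPM is not scaled to transcript length, so levels are compared between groups for 1 gene and not between genes. A floor of 3 counts per library corresponded to between 1.39 and 3.85 CPM and covers counting error only. All 10 fibroblast markers exceeded the floor in at least 41 of the 44 libraries, with PDGFRB the least often (summed level 17300 to 52500 CPM). Of 8 epithelial markers, CDX2, MUC2 and CLDN7 were at 0 and EPCAM did not exceed the floor in any library, whereas VIL1 (villin 1) exceeded it in 42 libraries and KRT19 in 2, and the summed level of the list was 2.2 to 26.6 CPM. AREG was counted in 42 libraries (5191 counts), NRG1 in 44 (6846 counts), EREG in 21 (226 counts), HBEGF in 33 (190 counts), BTC in 4 (20 counts) and TGFA in 2 (5 counts). In bulk RNA, a lower share of cells that express a gene and less RNA per cell cannot be told apart.

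IL-1β and TNF each raised 3 of the 4 tested ligands, AREG, EREG and NRG1. Of these, EREG passed the filter on low counts only through its IL-1β and TNF libraries. TGF-β1, IFNα and IFNγ each raised AREG, and IL-13 lowered AREG. No tested ligand passed the test with IL-6, IL-17A, IL-22 or OSM, and HBEGF passed with no cytokine. A gene passed the test at an adjusted p under 0.05 in edgeR's quasi-likelihood test, adjusted over all 9513 genes. The share of all tested genes that rose was 3.46% with IL-1β, 5.37% with TNF, 2.61% with TGF-β1, 4.99% with IFNα and 5.52% with IFNγ, and the share that fell with IL-13 was 2.4%. Among the cytokines without a passing ligand, 0.0105% of genes changed with IL-6, 1.52% with IL-17A, 3.96% with OSM and 0% with IL-22. The count of 0 genes for IL-22 compares with 1037 at an unadjusted p under 0.05 in edgeR and 96 passing in DESeq2. DESeq2 gave no adjusted p for 6271 of the 9513 genes with IL-22, 2767 with OSM and 1845 with IL-17A. Its adjustment thus ran over fewer genes, and a gene without an adjusted p counts as not passing. At an unadjusted p under 0.05, 1 ligand passed with IL-6 (NRG1), 1 with IL-17A (AREG), 1 with OSM (NRG1) and 0 with IL-22. Of all 9513 genes, 233 met this criterion with IL-6, 1195 with IL-17A and 1455 with OSM in edgeR. In DESeq2, 0 ligands passed with each of these 4 cytokines. Adding the study's fold threshold (absolute log2 fold change above 1.5) removed NRG1 from the TNF comparison, in which 4.19% of all genes passed both criteria.

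**Figure D1:**
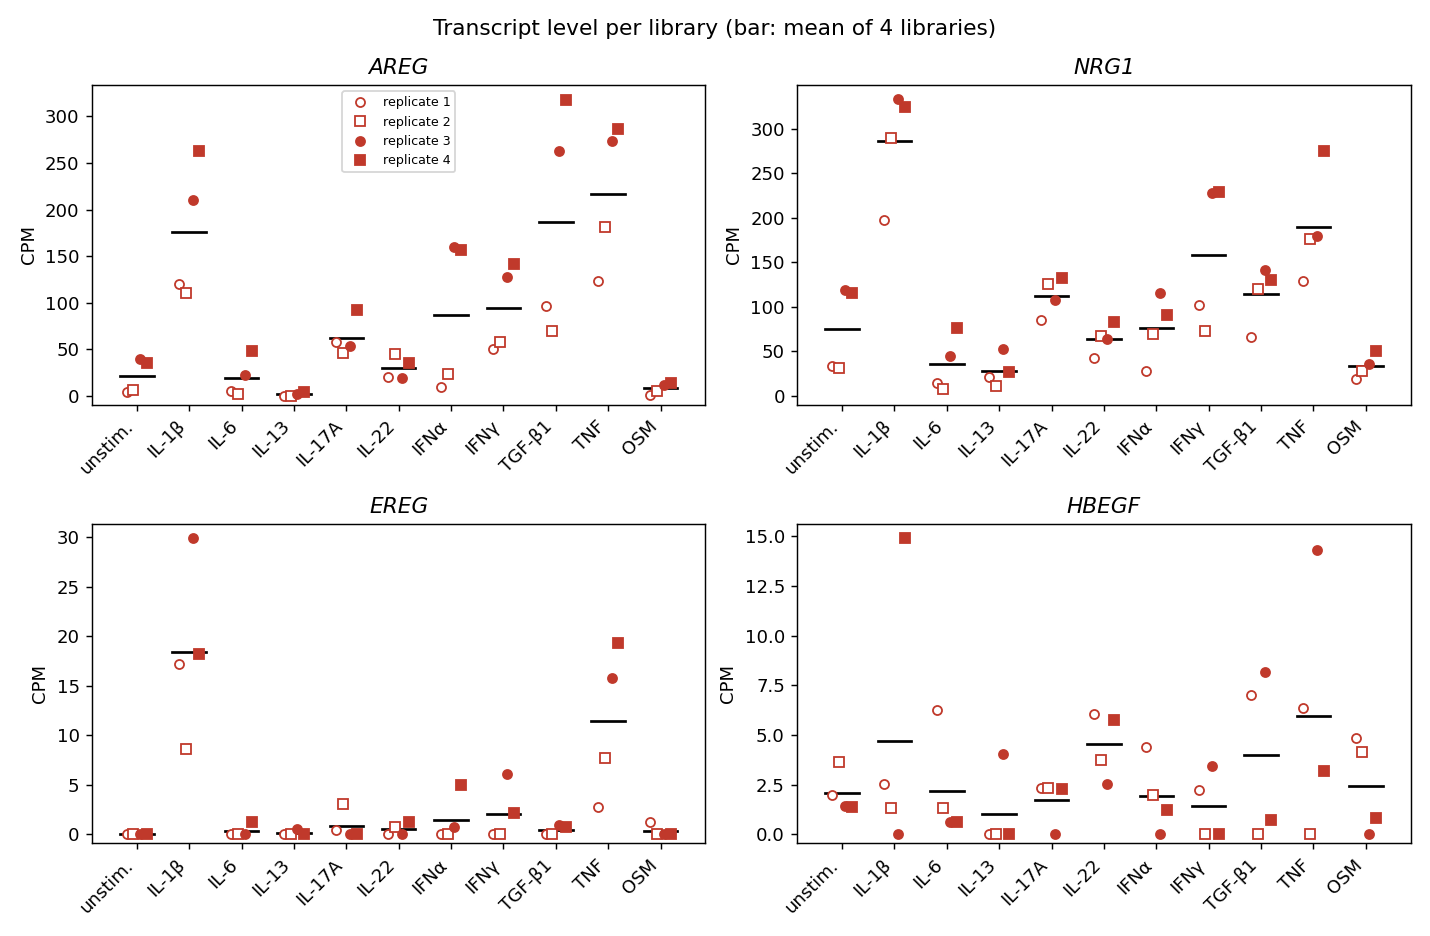
Level of AREG, NRG1, EREG and HBEGF in CPM (vertical axes, a separate linear scale per gene) in each library of the 11 groups (horizontal axes); symbols give the replicate number and the black bar is the mean of 4 libraries. AREG is highest on average with TNF (216 CPM) and lowest with IL-13 (1.47 CPM), and EREG is counted in all 4 libraries only with IL-1β and TNF, at 2.82 to 29.9 CPM.

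AREG rose with IL-1β, TNF and TGF-β1. Unstimulated replicates 1 to 4 had 4.41, 5.83, 39.4 and 35.5 CPM of AREG. With IL-1β the 4 libraries had 120, 110, 210 and 263 CPM, with TNF 123, 181, 274 and 287 CPM, and with TGF-β1 96.7, 69.1, 263 and 318 CPM. All 12 of these libraries were above the highest unstimulated library. Group means were 21.3 ± 18.7 CPM (SD, n = 4) without stimulation, 176 ± 73.3 with IL-1β, 216 ± 78.1 with TNF and 187 ± 123 with TGF-β1. The log2 fold change of AREG was 3.07 ± 0.68 (SE) with IL-1β (edgeR, adjusted p = 0.00168), 3.37 ± 0.69 with TNF (edgeR, adjusted p = 0.000445) and 3.16 ± 0.69 with TGF-β1 (edgeR, adjusted p = 0.00218). These 3 calls were kept when any 1 of the 8 libraries in each comparison was left out.

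AREG was also higher with both interferons, close to the threshold of the test. With IFNγ, the type II interferon, replicates 1 to 4 had 50.5, 58.1, 127 and 141 CPM, all above the unstimulated libraries. With IFNα, a type I interferon, they had 9.37, 23.0, 160 and 156 CPM, so replicates 1 and 2 lay within the unstimulated range and replicates 3 and 4 far above it. The log2 fold change was 2.17 ± 0.68 with IFNγ (edgeR, adjusted p = 0.0296) and 2.05 ± 0.68 with IFNα (edgeR, adjusted p = 0.0436). The IFNγ call was lost without unstimulated replicate 1 (adjusted p = 0.0967 in edgeR) or 2 (0.115), or without IFNγ replicate 3 (0.0774) or 4 (0.0983). The IFNα call was lost without unstimulated replicate 1 (adjusted p = 0.136 in edgeR) or 2 (0.15), or without IFNα replicate 3 (0.197) or 4 (0.183), and in DESeq2's Wald test (0.0735).

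IL-13, a type 2 cytokine, lowered AREG. Replicates 1 and 2 with IL-13 had 0 counts, which allows up to 1.99 and 2.32 CPM, and replicates 3 and 4 had 2.31 and 3.55 CPM from 4 counts each. All 4 were below the lowest unstimulated library, and the log2 fold change was -3.80 ± 1.09 (edgeR, adjusted p = 0.0356). The call was lost without unstimulated replicate 3 (adjusted p = 0.113 in edgeR) or 4 (0.124). It was also lost without IL-13 replicate 1 (adjusted p = 0.115 in edgeR), 2 (0.11), 3 (0.0746) or 4 (0.0537), with the log2 fold change at -4.42 in the last case.

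The remaining cytokines gave AREG differences that did not pass the test. With IL-17A, AREG was at 57.5, 46.0, 53.7 and 91.9 CPM, above all unstimulated libraries, with a log2 fold change of 1.58 ± 0.68 (edgeR, adjusted p = 0.302). IL-22 gave 20.5, 44.5, 19.2 and 34.6 CPM, and IL-6 gave 4.57, 1.96, 22.1 and 48.3 CPM. Both groups overlapped the unstimulated libraries. OSM, a cytokine of the IL-6 family, gave 1.22, 4.74, 11.3 and 14.0 CPM, with a log2 fold change of -1.47 ± 0.82 (edgeR, adjusted p = 0.41). In order of mean level, AREG was highest with TNF, followed by TGF-β1, IL-1β, IFNγ, IFNα, IL-17A, IL-22, no stimulation, IL-6, OSM and IL-13. Neighbouring groups in this order overlapped, except IL-17A, whose 4 libraries were all above those of IL-22.

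**Figure D2:**
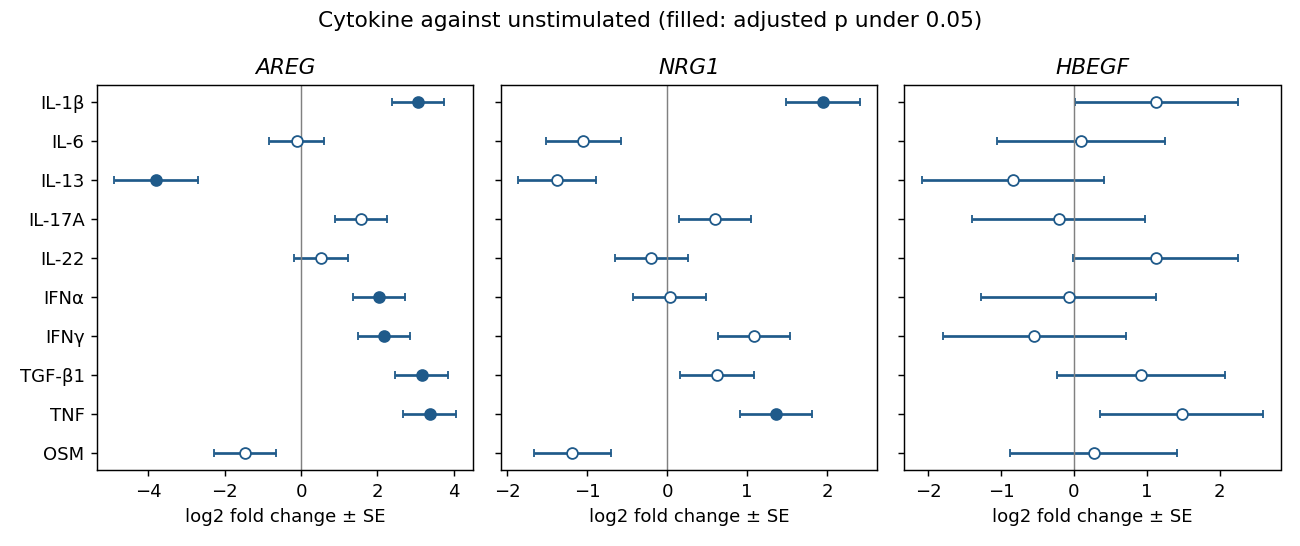
Log2 fold change of AREG, NRG1 and HBEGF for each cytokine against unstimulated cells (horizontal axes), with bars for the standard error and filled points for an adjusted p under 0.05. AREG has 6 filled points, of which IL-13 lies below 0 at -3.80, NRG1 has 2 (IL-1β and TNF) and HBEGF has none.

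EREG rose with IL-1β and TNF from 0 counts to levels above the floor. All 4 unstimulated libraries had 0 counts of EREG, which allows up to 1.47, 2.19, 2.11 and 2.05 CPM. With IL-1β, replicates 1 to 4 had 17.2, 8.62, 29.9 and 18.2 CPM, and with TNF they had 2.82, 7.75, 15.8 and 19.3 CPM. All 8 stimulated libraries were above the floor of every unstimulated library. Against the mean floor of 1.95 CPM, EREG was at least 9.44-fold higher with IL-1β and at least 5.84-fold higher with TNF. Both differences passed the test (edgeR, adjusted p = 0.00027 for IL-1β and 0.000775 for TNF) and were kept when any 1 library was left out. EREG passed the filter on low counts only through IL-1β and TNF libraries, the groups in which it was called. These p-values therefore come after a filter that the same libraries decided. A fitted fold change against a group at 0 depends on the prior count and is not given.

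With the other cytokines EREG stayed at or near the floor. IFNγ gave 0, 0, 6.07 and 2.14 CPM and IFNα gave 0, 0, 0.794 and 4.98 CPM, so counts appeared only in replicates 3 and 4. Neither passed the test (edgeR, adjusted p = 0.0614 for IFNγ and 0.107 for IFNα). EREG with IFNγ did pass without IFNγ replicate 1 (adjusted p = 0.037 in edgeR) or 2 (0.0304), both of which had 0 counts. IL-17A gave 0.464, 3.12, 0 and 0 CPM, and no library with IL-6, IL-13, IL-22, TGF-β1 or OSM exceeded 1.28 CPM. EREG with TGF-β1 was at 0, 0, 0.907 and 0.734 CPM, in the same libraries in which AREG was at 69.1 to 318 CPM.

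NRG1, the ligand of ERBB3 and ERBB4, rose with IL-1β and TNF and was counted in every library. Its gene lies on chromosome 8, at positions 31639222 to 32855666 of the plus strand (GRCh38, GENCODE 44). Unstimulated replicates 1 to 4 had 33.3, 30.6, 119 and 115 CPM. With IL-1β they had 198, 290, 333 and 325 CPM, and with TNF 129, 176, 179 and 275 CPM. All 8 stimulated libraries were above all unstimulated ones. The log2 fold change was 1.95 ± 0.46 with IL-1β (edgeR, adjusted p = 0.00294) and 1.36 ± 0.45 with TNF (edgeR, adjusted p = 0.0408). The IL-1β call was kept in each of the 8 fits that left out 1 library. The TNF call was lost without unstimulated replicate 1 (adjusted p = 0.129 in edgeR) or 2 (0.161), or without TNF replicate 3 (0.0605) or 4 (0.129), and in DESeq2's Wald test (0.0536).

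NRG1 did not pass the test with any other cytokine, and all of those groups overlapped the unstimulated libraries. With IFNγ, NRG1 was at 102, 72.3, 228 and 229 CPM, a log2 fold change of 1.09 ± 0.45 (edgeR, adjusted p = 0.121). It passed without IFNγ replicate 2 (adjusted p = 0.0395 in edgeR). IL-13 gave 21.2, 10.8, 52.5 and 26.6 CPM, a log2 fold change of -1.38 ± 0.49 (edgeR, adjusted p = 0.107), which passed without IL-13 replicate 3 (0.0458). OSM gave 18.3, 27.3, 35.4 and 50.3 CPM, a log2 fold change of -1.19 ± 0.48 (edgeR, adjusted p = 0.194). IL-6 gave 14.8, 7.85, 44.3 and 76.1 CPM, a log2 fold change of -1.05 ± 0.47 (edgeR, adjusted p = 1). The means of these 3 groups, between 27.8 and 35.8 CPM, were the lowest of NRG1. IFNα (27.6, 69.8, 115 and 90.9 CPM), IL-22 (42.5 to 83.2 CPM), IL-17A (84.9 to 132 CPM) and TGF-β1 (65.5 to 141 CPM) had means between 64.2 and 114 CPM, beside 74.4 CPM without stimulation. Neighbours in the order of mean NRG1 levels overlapped throughout.

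HBEGF was low in all groups, with 0 to 23 counts per library and at most 14.9 CPM. Unstimulated replicates 1 to 4 had 1.96, 3.65, 1.41 and 1.37 CPM. With TNF the libraries had 6.35, 0, 14.3 and 3.21 CPM, and with IL-1β 2.52, 1.33, 0 and 14.9 CPM. A single library held most of the counts in the latter group, and both groups overlapped the unstimulated libraries. Log2 fold changes of HBEGF ran from -0.84 ± 1.25 with IL-13 to 1.48 ± 1.12 with TNF, and none passed the test (edgeR, adjusted p = 0.472 for TNF). The standard errors were 1.12 or more on the log2 scale, so these comparisons do not show that HBEGF was the same with and without a cytokine.

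TGFA was counted in 2 libraries, with 4 counts in TNF replicate 4 (2.14 CPM) and 1 count in IFNγ replicate 3 (0.867 CPM). BTC was counted in all 4 IFNα libraries and in none of the 40 others. The IFNα replicates held 3, 10, 1 and 6 counts, or 1.65, 6.58, 0.794 and 3.74 CPM. In 2 of these libraries BTC did not exceed the floor of 3 counts. Without a filter on low counts, BTC with IFNα did not pass the test (edgeR, unadjusted p = 0.00412, adjusted p = 0.0877). The summed level of 8 leukocyte markers was also higher in the IFNα libraries, 38 to 79.3 CPM against 0 to 20.6 CPM elsewhere. That sum was mostly CD68, a lysosomal membrane protein, at 36.1 to 73.8 CPM, while the other 7 markers together had 0 to 7.9 CPM. CD68 exceeded the floor in 34 of the 44 libraries. PTPRC, the pan-leukocyte marker, did not exceed the floor in any library and CD3E, TYROBP and TPSAB1 were at 0 throughout. Over all groups, KIT exceeded the floor in 13 libraries (at most 9.14 CPM), LYZ in 2 and CD14 in 1. The part of these markers in the BTC counts, and in the AREG level with IFNα, was not tested.

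Cytokines with related receptors or pathways were compared directly, and none of the 4 tested ligands passed. All genes that differed amounted to 1.15% for TNF against IL-1β, 9.39% for IFNα against IFNγ and 2.67% for OSM against IL-6. For TNF minus IL-1β, the log2 difference was 0.30 ± 0.59 for AREG (edgeR, adjusted p = 0.897), -0.68 ± 0.88 for EREG (0.83) and -0.59 ± 0.43 for NRG1 (0.632). For IFNα minus IFNγ, it was -0.12 ± 0.62 for AREG (edgeR, adjusted p = 0.947) and -1.07 ± 0.45 for NRG1 (0.15). For OSM minus IL-6, it was -1.35 ± 0.82 for AREG (edgeR, adjusted p = 0.54) and -0.14 ± 0.49 for NRG1 (0.957).

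AREG and NRG1 had been noted for a difference between replicate numbers, which is described here without a test. Replicates 3 and 4 were both above replicates 1 and 2 in 9 of 11 groups for AREG, and likewise in 9 of 11 groups for NRG1. The exceptions were IL-17A and IL-22 for both genes. Without stimulation, the mean of replicates 3 and 4 over that of replicates 1 and 2 was 7.32-fold for AREG (37.5 against 5.12 CPM) and 3.66-fold for NRG1 (117 against 32 CPM). For AREG the ratio was 10.8 with IL-6 and 9.77 with IFNα, and between 1.41 and 2.46 with IL-17A, TNF, IL-1β and IFNγ. For NRG1 it was between 1.15 with IL-17A and 5.31 with IL-6. Of all tested genes, 0.116% showed this order in at least 9 groups, namely AREG, NRG1, ADSS2, GJA1, GNG11, MMP10, NAMPT, PTGS2, SDCBP, SLC6A15 and TNFAIP6. EREG and HBEGF, which had not been noted for it, did not pass a test of the replicate number (edgeR, adjusted p = 0.535 and 0.823), whereas 1.17% of all genes did. For EREG, replicates 3 and 4 were above 1 and 2 in 5 of 11 groups and below in 1. The 5 included IL-1β (mean 24 against 12.9 CPM) and TNF (17.5 against 5.29 CPM). For HBEGF they were below in 5 groups and above in 0. Both genes had few counts, so the test does not show that the numbers were alike.

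Depth and cell type markers were also summarized by replicate number, as medians over all groups. Median total counts were 1612043, 1423038, 1354826 and 1558354 for replicates 1 to 4. The median summed level of fibroblast markers was 35300 CPM in replicates 1 and 2 and 33400 CPM in replicates 3 and 4. That of epithelial markers was 9.64 and 10.6 CPM, and that of leukocyte markers 9.18 and 8.97 CPM. Endothelial markers had 0.615 and 0 CPM, and glial markers 0 and 0 CPM. The part of depth or cell types in the replicate difference was not tested. The labels do not say whether a number marks a shared culture, day or batch.

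**Figure D3:**
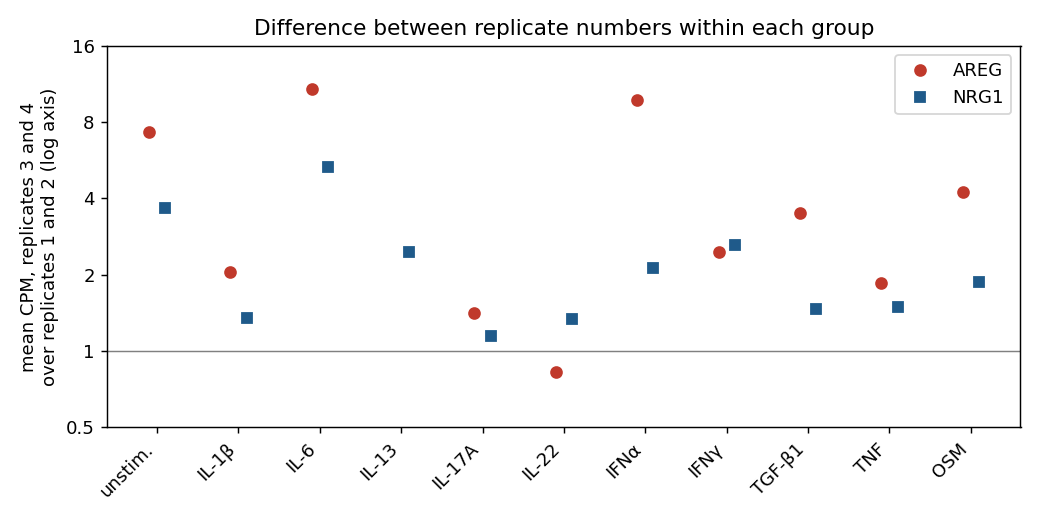
Ratio of the mean CPM of replicates 3 and 4 to that of replicates 1 and 2 (vertical axis, log scale) in each of the 11 groups (horizontal axis) for AREG (circles) and NRG1 (squares); the ratio of AREG with IL-13 is undefined because replicates 1 and 2 had 0 counts. All ratios but that of AREG with IL-22 (0.828) are above 1.

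The size of the cytokine differences was therefore computed within replicates 1 and 2 and within replicates 3 and 4. This split was chosen on the difference for which AREG and NRG1 had been noted, so the values are a description. A gap between the 2 estimates of a gene restates its replicate ratios above, with and without the cytokine. For AREG without stimulation that ratio was 7.32-fold. AREG differences from unstimulated cells were larger on the log2 scale within replicates 1 and 2 for IL-1β (4.49 ± 0.51 against 2.66 ± 0.32), TNF (4.90 ± 0.52 against 2.92 ± 0.32), TGF-β1 (4.06 ± 0.52 against 2.97 ± 0.32) and IFNγ (3.43 ± 0.52 against 1.84 ± 0.32). With these 4 cytokines AREG was higher than without stimulation in both sets of replicates. For IL-17A the AREG difference was 3.36 ± 0.51 within replicates 1 and 2 and 0.97 ± 0.32 within replicates 3 and 4. For IL-22 it was 2.69 ± 0.53 within replicates 1 and 2 and -0.40 ± 0.35 within replicates 3 and 4, so the sign differed. IFNα gave 1.66 ± 0.55 and 2.09 ± 0.31, and IL-13 gave -5.93 ± 1.49 and -3.69 ± 0.49.

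NRG1 showed a similar arrangement. Its log2 difference within replicates 1 and 2 and within replicates 3 and 4 was 2.92 ± 0.42 and 1.5 ± 0.28 with IL-1β, and 2.26 ± 0.41 and 0.97 ± 0.28 with TNF. With IL-17A it was 1.71 ± 0.41 and 0.05 ± 0.29, and with TGF-β1 1.55 ± 0.42 and 0.22 ± 0.29. NRG1 was thus higher than without stimulation in both sets of replicates for IL-1β, TNF and IFNγ (1.46 ± 0.42 and 0.97 ± 0.28), while with IL-22 (0.79 ± 0.42 and -0.64 ± 0.30) and IFNα (0.60 ± 0.42 and -0.17 ± 0.29) the sign differed. Whether the 2 sets of replicates differ was not tested.

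**Figure D4:**
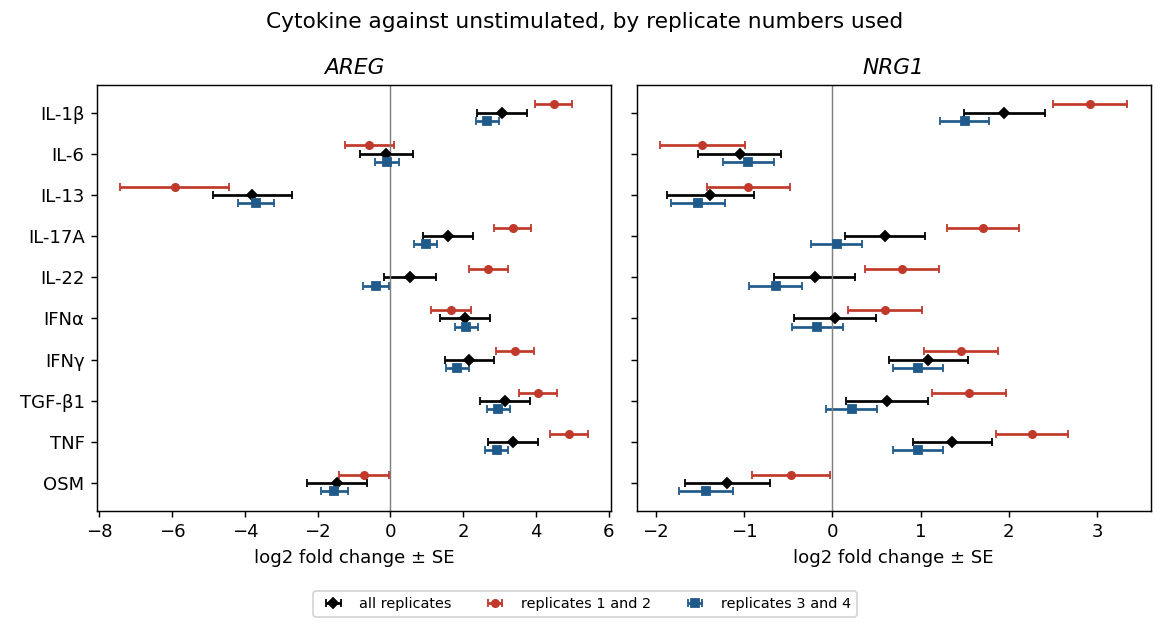
Log2 fold change of AREG and NRG1 for each cytokine against unstimulated cells (horizontal axes) from all replicates (diamonds), replicates 1 and 2 (circles) and replicates 3 and 4 (squares), with bars for the standard error. For AREG with IL-17A the estimate is 3.36 within replicates 1 and 2 and 0.97 within replicates 3 and 4.

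Of 52 other genes of the pathway, 38 were tested. Changes in these numbered 5 with IL-1β (3 higher, 2 lower; 13.2% of the list against 7.38% of all tested genes), 6 with TNF (4 higher, 2 lower; 15.8% against 11.5%) and 5 with TGF-β1 (4 higher, 1 lower; 13.2% against 5.69%). IFNγ changed 4 (10.5% against 10.6%), OSM 3 (7.89% against 3.96%), and IL-13, IL-17A and IFNα 2 each (5.26% against 3.93%, 1.52% and 9.85%). IL-6 and IL-22 changed 0. The median log2 fold change of the 38 genes was between -0.12 and 0.15 across cytokines.

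Among the receptors, only EGFR was tested. Its mean was 27.2 ± 6.69 CPM (SD, n = 4) without stimulation, lowest with IL-13 (14.1 ± 7.89 CPM) and highest with IFNα (44.4 ± 13.7 CPM). EGFR passed with no cytokine, with log2 fold changes from -0.92 ± 0.37 with IL-13 (edgeR, adjusted p = 0.174) to 0.71 ± 0.35 with IFNα (0.22). ERBB2, the co-receptor without a ligand of its own, had group means of 1.08 to 3.21 CPM, and ERBB3 of 0.698 to 3.36 CPM. ERBB4 had 1 count, in a TGF-β1 library. Of the other ligands, NRG4 was tested and passed with no cytokine (group means 2.63 to 10.9 CPM), EGF did not exceed the floor, and EPGN, NRG2 and NRG3 were at 0 in every library.

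Among 5 tested genes of ligand shedding, 3 changed with at least 1 cytokine. TIMP3, an inhibitor of ADAM proteases, fell from 247 ± 141 CPM (SD, n = 4) to 58.1 ± 5.41 CPM with IL-1β (log2 fold change -2.09 ± 0.34, edgeR adjusted p = 1.52e-05). TIMP3 fell also with OSM, TNF, IFNγ and IL-17A, by log2 fold changes from -1.72 to -1.40, and rose with TGF-β1 (1.10 ± 0.32, adjusted p = 0.0291). The protease ADAM12 rose with TGF-β1 from 16.3 ± 4.72 to 77.2 ± 32.7 CPM (log2 fold change 2.23 ± 0.41, adjusted p = 0.00025). ADAM9 fell with IFNγ, TNF and IFNα, by log2 fold changes of -0.93, -0.62 and -0.59.

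None of 13 tested genes of signal transduction from the receptor, such as the RAS, RAF and MAP kinase genes, passed with any cytokine. Of 12 tested inhibitors and feedback genes, LRIG3, a member of the LRIG family of transmembrane proteins, rose with IFNα (1.75 ± 0.34), IL-1β (1.26 ± 0.34) and TGF-β1 (1.23 ± 0.35) on the log2 scale. SPRY2, a feedback inhibitor of receptor tyrosine kinases, rose with TNF (1.61 ± 0.42, edgeR adjusted p = 0.00654). DUSP6, a phosphatase of MAP kinases, fell with TGF-β1 (-1.66 ± 0.43, edgeR adjusted p = 0.0129).

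Of 6 tested early target genes, 4 changed with at least 1 cytokine, a count that likewise has no share of all genes beside it. IER3, an immediate early gene, was at 8.20 ± 5.10 CPM without stimulation and rose to 77.1 ± 33 CPM with IL-1β (log2 fold change 3.22 ± 0.44, edgeR adjusted p = 6.28e-07) and 63.6 ± 25.2 CPM with TNF (2.95 ± 0.44, adjusted p = 3.59e-06). IER3 rose also with IL-17A, TGF-β1 and IFNγ, by log2 fold changes of 2.01, 1.95 and 1.73. PHLDA1 rose with IFNγ (0.89), IL-1β (0.87), TNF (0.73) and OSM (0.66) and fell with IL-13 (-0.87) on the log2 scale. FOSL1, a subunit of AP-1, fell with IL-13 (-1.49 ± 0.41) and rose with TNF (1.23 ± 0.37). EGR1, a zinc finger transcription factor, fell with IL-1β (-1.26 ± 0.29) and OSM (-0.97 ± 0.29).

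Likeness of pattern was measured by Pearson's r of log2 CPM (prior count 2) over the 44 libraries, as a description. These libraries share treatments and replicate numbers. The 3 genes most like AREG were TFPI2, a serine protease inhibitor (r = 0.929), STC1, the secreted glycoprotein stanniocalcin 1 (0.916), and the stromelysin MMP10 (0.906). For NRG1 they were AREG (0.906), which shares with it the order of replicate numbers for which both had been noted, PTGS2, which encodes cyclooxygenase 2 (0.89), and the cytokine gene IL1B (0.888). For EREG they were IL23A (0.884), CSF2 (0.858) and FGF2 (0.856), which encode secreted cytokines and a growth factor. EREG had r = 0.692 with NRG1 and 0.61 with AREG. HBEGF reached 0.595 with HIRIP3, from sparse counts, and had 0.125 with AREG. Over the 11 group means, the 3 genes most like AREG were IL11, MMP10 and TFPI2, those most like EREG were C15orf48, SERPINB2 and CSF2, and those most like NRG1 were OSGIN2, PTGS2 and NR4A2. AREG was then no longer among the 3 most like NRG1 (r = 0.924), and the 3 most like HBEGF were all other genes than before. MMP10 and PTGS2 are also among the genes listed above for the order of replicate numbers.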

How the data were processed

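Bulk RNA-seq libraries (NEBNext Ultra II kit, NovaSeq6000) were made from Ccd-18Co cells, 4 in each of 11 groups assigned from the sample labels. The submitters' processing notes name FastQC 0.11.9, MultiQC 1.14, kallisto 0.48.0 and hg38, and the authors deposited estimated counts per gene symbol, not scaled for depth. Which transcriptome was used, how transcripts were summed to symbols and whether strand was used are not given in the sources used here. Of the deposited values, 5.73% were not whole (tolerance 1e-06), and 16928 of 40663 symbols were at 0 in all libraries. Median depth was 1480883 counts, and the median count of a tested gene in unstimulated libraries was 34.

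Estimated counts were rounded to whole numbers. In R 4.3.3, genes were kept by filterByExpr with the 11 groups (9513 genes), normalized by TMM and fitted with edgeR 4.0.16 (quasi-likelihood) in 1 model of all 44 libraries, with 1 coefficient per group and a common biological coefficient of variation of 0.331. Benjamini-Hochberg adjustment was made over all genes within each comparison, and the threshold was an adjusted p of 0.05. DESeq2 1.42.0, its size factors, other filters, fits of only the compared groups, a replicate block and leaving out single libraries were tried as alternatives, and fits within replicates 1 and 2 or 3 and 4 were added after seeing the data. The edgeR and DESeq2 steps were tested on simulated data with 200 changed genes, of which edgeR recovered 69% and DESeq2 75%. At an absolute log2 change of 1.5, edgeR recovered 59 of 100, so a gene that did not pass may still have changed. Changed genes were drawn from those well counted without stimulation, and no difference between replicate numbers was simulated. The simulation therefore does not cover genes of few counts such as EREG and HBEGF. No 2 libraries of a group held identical values. All 6 ligands, all ERBB receptors and other ligands are named, and of the other pathway lists at most the 3 genes of largest change per list and cytokine that passed, with a preference for groups that did not overlap. The ligands and lists were chosen with earlier results of these data known. Gene positions come from GENCODE 44, and promoter sequences from RefSeq (GRCh38.p14), which held 5 of the 6 ligands. No sample was left out.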

Additional observations from a re-analysis of the deposited data

Results flagged for a closer look

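Of 46 groups of 4 libraries in which a ligand varied, 11 held a library far from the other 3 by Dixon's criterion, and 6 of these 11 exceeded the floor of 3 counts. Chance alone gives about 5% of groups for continuous values, but that share does not apply here, since any count in a group whose other 3 libraries are at 0 meets the criterion. All 11 belong to EREG, HBEGF and TGFA, the ligands of few counts. EREG stood apart at 4.98 CPM in IFNα replicate 4, 3.12 CPM in IL-17A replicate 2, 1.22 CPM in OSM replicate 1, 1.21 CPM in IL-6 replicate 4 and 0.577 CPM in IL-13 replicate 3. HBEGF stood apart at 14.9 CPM in IL-1β replicate 4 (0 to 2.52 CPM in the others), 6.28 CPM in IL-6 replicate 1 (0.604 to 1.31 CPM) and 4.04 CPM in IL-13 replicate 3, and on the low side at 0 CPM in IL-17A replicate 3 (2.3 to 2.34 CPM). TGFA stood apart at 2.14 CPM in TNF replicate 4 and 0.867 CPM in IFNγ replicate 3, the 2 libraries in which it was counted. The cause was not tested.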

How the results depend on the processing

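The number of ligands passing with IL-1β stayed at 3 and AREG passed with TGF-β1 under every alternative run. With all genes of any count kept (23518 genes, among them all 6 ligands), the number of passing ligands was 1 with IL-6, 2 with IL-13, 1 with IL-17A, 3 with IFNγ and 2 with OSM, and 2 in the direct comparisons. In fits of only the compared groups it was 0 with IL-13, IFNα and IFNγ and 2 with TNF, and in DESeq2's Wald test 0 with IFNα and 2 with TNF. The fits of only the compared groups repeated the filter on low counts. There AREG with IL-13 and EREG with TNF did not pass the filter and were not tested. Leaving out 1 library gave 0 to 1 with IL-13, 0 to 1 with IFNα, 0 to 3 with IFNγ (3 without IFNγ replicate 2) and 2 to 3 with TNF. With the study's fold threshold, changes of other pathway genes over the 10 cytokines numbered 8 higher and 3 lower, against 16 and 13. The filter of 10 counts in 4 libraries left 3 ligands tested, without HBEGF, and changed no count of passing ligands. Apart from the 2 ligands filtered out, the cause of these changes was not tested. Counts over all genes are not given for the fits with any count, of only the compared groups or without 1 library. The numbers of passing ligands there have no share of all genes beside them.

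Replicate numbers did not meet the rule set for pairing, a correlation over 0.1 at all 4 numbers. The correlations run over all tested genes, so they cannot show whether a number was shared for a few genes such as AREG and NRG1. Deviations of same-numbered libraries correlated at -0.125 to 0.281, 0 of 13 comparisons had all 4 correlations over 0.1, and the highest correlation was with the own number in 19 of 52 cases (13 comparisons of 4 numbers, in which libraries recur). With a replicate block, 2 ligands passed with IL-13, 1 with IL-17A (AREG, adjusted p = 0.0124), 2 with IFNγ, 1 with OSM (NRG1, adjusted p = 0.0472), and 1 in the direct comparisons (NRG1, IFNα against IFNγ, adjusted p = 0.0193), all from edgeR. Within replicates 1 and 2, 2 ligands passed with IL-17A, 1 with IL-22, 0 with IFNα, 2 with IFNγ, 2 with TGF-β1, 2 with TNF (EREG no longer passed, adjusted p = 0.0909 in edgeR) and 1 in the direct comparisons. Within replicates 3 and 4, 2 passed with IL-13, 2 with IFNγ, 2 with OSM and 1 in the direct comparisons. Counts over all genes are not given for the fits within replicates, so no share stands beside these numbers. Both the split and the block remove the difference for which AREG and NRG1 had been noted, so their smaller spread there is no independent support. EREG with IFNα or IFNγ could not be fitted within replicates 1 and 2, where both groups had 0 counts. HBEGF, TGFA, BTC and EREG had few counts (190, 5, 20 and 226 in all), and HBEGF and EREG varied widely between libraries of a group.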
